A study of Drosophila melanogaster with 2 samples.

Results

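The 300 strongest Dp peaks were the summits with the highest pooled signal value among the 5828 peaks that passed the authors' reproducibility threshold, and they made up 5.15% of that list. They were selected on this signal, so the signal itself is described here and is not a finding, while position, sequence and gene function were not used to choose them. The data came from Dp ChIP-seq, in which DNA bound by a tagged protein is recovered and sequenced, on whole Drosophila melanogaster embryos of pooled sexes aged 0 to 24 hours. All embryos carried a stably expressed transgene of Dp with GFP at its C terminus, so all values rest on the tagged protein and on a mixture of all embryonic cell types and stages. The only group, Dp-GFP embryos, held 2 biological replicates, numbered 1 and 3 in the labels, and there was no second condition. The labels call these libraries input controls while naming Dp as the antibody target, a point that could not be settled. Their titles read TF ChIP-seq, and the deposited peaks were called on them against a control, so they were used as Dp ChIP. Nothing in the labels says how the replicates were separated, read depth is unknown because the files hold peaks, and values from whole embryos cannot tell more cells with Dp at a site from more Dp per cell.

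Dp is the partner with which E2F transcription factors bind DNA, and the dimer contacts sites near the starts of genes for DNA replication and cell division. In Drosophila an activating E2F drives entry into S phase, and a repressive one sits with Dp, a retinoblastoma protein and the Myb-MuvB subunits in the dREAM complex, which holds many genes silent. The MuvB part of that complex contacts a separate element, the cell cycle genes homology region or CHR. A related arrangement, an E2F-like site followed at short range by a CHR, is known from mitotic promoters of mammals. Other elements named below, the DRE bound by the factor DREF and core promoter motif 1 bound by M1BP, mark broadly active Drosophila promoters.

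The sequences that follow are stretches of the dm6 assembly centred on single summits, with 50 bases to either side, chosen by a rule on motif content and rank, and capitals mark the E2F core (TTNNCGC, where each N is C or G), the CHR (TTNGAA, where N is C or T) or the DRE (TATCGATA) on either strand. The first trio shows the strongest eligible peaks with an E2F core in this window, at Sgt1, a co-chaperone, jar, which encodes myosin VI, and the uncharacterized gene CG42495.
Sgt1 (chr3R:8305365-8305465, plus strand): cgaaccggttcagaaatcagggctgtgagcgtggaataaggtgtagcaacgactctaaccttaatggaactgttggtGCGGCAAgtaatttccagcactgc
jar (chr3R:24271315-24271415, plus strand): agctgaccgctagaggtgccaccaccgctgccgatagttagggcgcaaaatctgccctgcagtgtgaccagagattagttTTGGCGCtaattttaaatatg
CG42495 (chr3L:18667262-18667362, plus strand): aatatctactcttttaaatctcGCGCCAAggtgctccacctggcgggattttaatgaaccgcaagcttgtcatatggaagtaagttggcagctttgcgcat
The next trio carries the DRE, and the surrounding 100 bp on each side of the summit lack an E2F core, at ftz-f1, a nuclear receptor gene, Syx7, an endosomal syntaxin, and CycA, the cyclin of S phase and mitosis.
ftz-f1 (chr3L:18801534-18801634, plus strand): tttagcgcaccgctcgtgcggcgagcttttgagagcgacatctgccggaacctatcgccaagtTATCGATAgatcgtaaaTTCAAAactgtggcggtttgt
Syx7 (chr3L:21445731-21445831, plus strand): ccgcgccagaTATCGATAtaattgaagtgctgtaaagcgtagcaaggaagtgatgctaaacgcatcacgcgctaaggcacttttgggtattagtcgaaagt
CycA (chr3L:11833564-11833664, plus strand): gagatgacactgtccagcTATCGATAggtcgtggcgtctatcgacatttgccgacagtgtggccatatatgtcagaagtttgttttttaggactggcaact
The following trio has a CHR and neither of the other motifs within 100 bp, at vig, r-l and Ets97D.
vig (chr2L:15068103-15068203, plus strand): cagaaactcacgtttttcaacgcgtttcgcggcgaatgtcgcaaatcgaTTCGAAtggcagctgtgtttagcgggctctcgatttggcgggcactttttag
r-l (chr3R:21073338-21073438, plus strand): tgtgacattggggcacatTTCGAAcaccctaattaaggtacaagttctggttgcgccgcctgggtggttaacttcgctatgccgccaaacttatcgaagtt
Ets97D (chr3R:26912859-26912959, plus strand): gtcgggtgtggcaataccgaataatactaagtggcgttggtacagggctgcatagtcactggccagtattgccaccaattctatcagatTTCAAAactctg
The next pair has none of the 3 motifs within 100 bp of the summit, at CG33169 and upstream of the insulin receptor gene InR.
CG33169 (chr3L:22863704-22863804, plus strand): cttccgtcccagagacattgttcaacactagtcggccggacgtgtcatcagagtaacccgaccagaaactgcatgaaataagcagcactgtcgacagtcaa
InR (chr3R:21619886-21619986, plus strand): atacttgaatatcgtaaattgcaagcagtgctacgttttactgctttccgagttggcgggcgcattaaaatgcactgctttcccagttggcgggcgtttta
The last pair was chosen for its number of E2F cores, and each window shows 2. PolE1, a catalytic subunit gene of DNA polymerase epsilon, had 3 within 100 bp. A site in an intron near the ecdysone-response gene Eip74EF had 2, as did other members, Sgt1 among them. At PolE1 the capitals form a palindrome that counts as a core on each strand.
PolE1 (chr3R:23348037-23348137, plus strand): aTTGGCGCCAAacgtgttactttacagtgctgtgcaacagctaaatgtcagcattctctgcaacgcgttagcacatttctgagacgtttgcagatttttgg
Eip74EF (chr3L:17597149-17597249, plus strand): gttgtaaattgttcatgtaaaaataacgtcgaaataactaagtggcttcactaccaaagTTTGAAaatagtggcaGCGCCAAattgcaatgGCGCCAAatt
In the windows shown, the E2F core and the CHR usually lay to one side of the summit and seldom under it, and the peaks without any capitals show that no one of these motifs was present throughout. Matches had to be exact, so the similar letters TTGGCGG in the windows of InR, vig and r-l were not counted as cores.

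The pooled signal values of the 300 peaks ran from 4611 to 12685, a 2.75-fold range, with a median of 5537, against a median of 600 for the other 5528 thresholded peaks. These peaks carried 23.8% of the summed signal of the thresholded list. The limit cut through a continuous slope, since the last members had 4614 and 4611 and the first peaks outside had 4610 and 4609. The scale of the signal value is not stated, and it was used for ranking and description alone. Every member had a peak in the relaxed list of each replicate, which the threshold for reproducibility favoured in advance. Their values were 1803 to 6554 in replicate 3 (median 2578) and 2354 to 6793 in replicate 1 (median 3037). Replicate 3 was lower at 291 members and higher at 9, and on the log2 scale replicate 3 minus replicate 1 gave a median difference of -0.26 with an SD over peaks of 0.14, or 1.1-fold. No member differed by more than 2-fold between replicates.

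Of the 300 members, 261 (87%, exact 95% interval 82.7% to 90.6%) overlapped one of the 300 strongest peaks of both replicates, 17 of replicate 3 alone and 22 of replicate 1 alone, and none lay outside both. The pooled value is made from these libraries, so this overlap describes the choice and does not support it independently. The lowest-ranked member in a single replicate stood at 479 in replicate 3 and at 358 in replicate 1. The differences that most favoured replicate 1 were -0.69 at CG11737 (1803 in replicate 3 and 2901 in replicate 1), -0.63 at an intronic site of SNF4Agamma, a regulatory subunit gene of the AMP-activated kinase (1956 in replicate 3 and 3034 in replicate 1), and -0.58 at CG8366 (1878 in replicate 3 and 2815 in replicate 1). The differences that most favoured replicate 3 among named peaks were 0.12 at B4 (2559 in replicate 3 and 2354 in replicate 1) and 0.1 at Eip74EF (3470 in replicate 3 and 3241 in replicate 1).

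**Figure D1:**
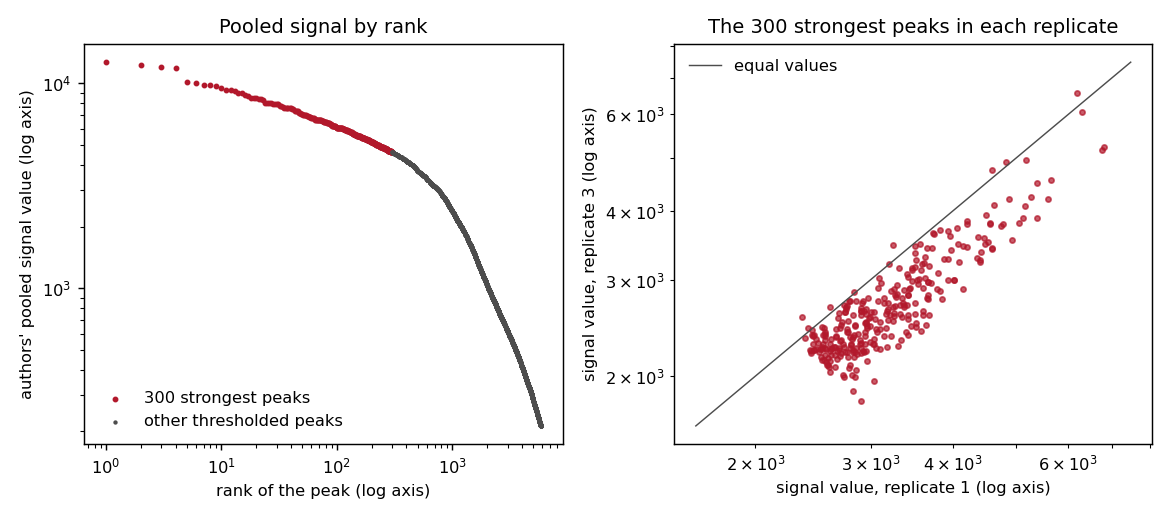
Left, the authors' pooled signal value of each thresholded peak against its rank, both on log axes, with the 300 strongest in red and the other peaks in grey. Right, the signal value of each of the 300 in replicate 3 against replicate 1 on log axes, with a line of equal values; 291 of 300 points lie below the line, in a narrow band.

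The strongest peaks lay at promoters as often as the others, but they sat more tightly on the upstream side of the start and more often at genes that did not share their promoter. A summit lay within 500 bp of an annotated start of a protein-coding gene for 262 members (87.3%) and for 87.6% of the other thresholded peaks, a difference of -0.311 percentage points (95% Newcombe interval -4.64 to 3.11). Of those 262 summits, 255 were upstream of the nearest start (97.3%, exact interval 94.6% to 98.9%), against 84.4% of 4845 other peaks at starts, a difference of 12.9 points (10 to 14.6). The median position was 60 bp upstream for members, with quartiles at -99.8 and -42 bp, and 48 bp upstream for the others, with quartiles at -101 and -16 bp. In all, 190 of the 262 (72.5%) fell 1 to 100 bp upstream of the start, against 59.3% of the others. By annotation, 237 member summits were intergenic (79%), 28 in introns, 26 in 5′ untranslated regions, 7 in 3′ untranslated regions and 2 in coding exons, while 65.5% of the other summits were intergenic and 15.8% in 5′ untranslated regions. Intervals here cover counting error only, and peaks are not independent replicates.

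Starts on both strands within 500 bp, the arrangement of divergent gene pairs, were found at 38 of the 262 members (14.5%, exact interval 10.5% to 19.4%) and at 42.1% of the other peaks at starts, a difference of -27.6 points (-31.6 to -22.6). A single gene lay in reach of 216 members, 2 genes of 41 and 3 genes of 5. Restricted to peaks with 1 gene in reach, the summit was upstream at 210 of 216 members (97.2%) and at 85.7% of 2738 others. Only 26 members (8.67%) shared a called interval with another thresholded summit, against 31.9% of the others, and no interval held 2 members; the number of summits in an interval comes from the same peak calling as the signal. Promoters with a pair of starts among the members included those of PolE2 and CG5592, of Gpdh1, a glycolytic shuttle enzyme gene, and Sfp26Ad, and of CG2656 and CG14610.

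The E2F core and the CHR showed the largest differences in share, in percentage points, between the members and the other peaks. An E2F core lay within 100 bp of 137 member summits (45.7%, exact interval 39.9% to 51.5%), against 17.5% of the other peaks, a difference of 28.2 points (22.6 to 33.9). The longer form, which begins with 1 more T, occurred at 76 members (25.3%, 20.5% to 30.7%), against 9.41%, a difference of 15.9 points (11.3 to 21.2). The CHR was at 220 members (73.3%, 67.9% to 78.3%), against 48%, a difference of 25.4 points (19.9 to 30.2). In windows of the same length 500 bp to either side of the members these motifs were at 11.7%, 4.5% and 22.8%, close to the 10.2%, 3.37% and 21.7% beside the other peaks. In windows at 19252 starts of protein-coding genes, centred on the start, the E2F core was at 11.3%, the long form at 4.77% and the CHR at 32%. At 12129 positions 60 bp upstream of starts that had no thresholded summit within 500 bp, the E2F core was at 9.29% and the CHR at 29.9%.

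Among elements of broadly active promoters, the DRE was at 68 members (22.7%, 18.1% to 27.8%), against 14.1% of the other peaks, a difference of 8.57 points (4.1 to 13.7), and its CGATA part was at 62%, against 50.4%, a difference of 11.6 points (5.82 to 17.1). Flanks of the members held a DRE in 0.5%, and all starts in 6.45%. Motif 1 was at 24 members (8%, 5.19% to 11.7%), against 6.96%, with an interval of the difference of -1.62 to 4.72 points. The Myb site, which takes C or T, then AAC, then G or T and a final G, was at 29% of members, against 32.1%, a difference of -3.13 points (-8.13 to 2.38). The site CAGGTAG of the early activator Zelda was at 1% of members and 0.796% of the other peaks, the GAGA factor repeat GAGAGAG at 2.33% of members and 2.55% of the others, and the E-box CACGTG at 2.67% of members and 3.08% of the others. The interval of each of these differences included 0. All motifs were searched on both strands, the long E2F site contains the core, and the DRE contains CGATA. A match is a stretch of letters, and which protein occupies it was not measured.

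**Figure D2:**
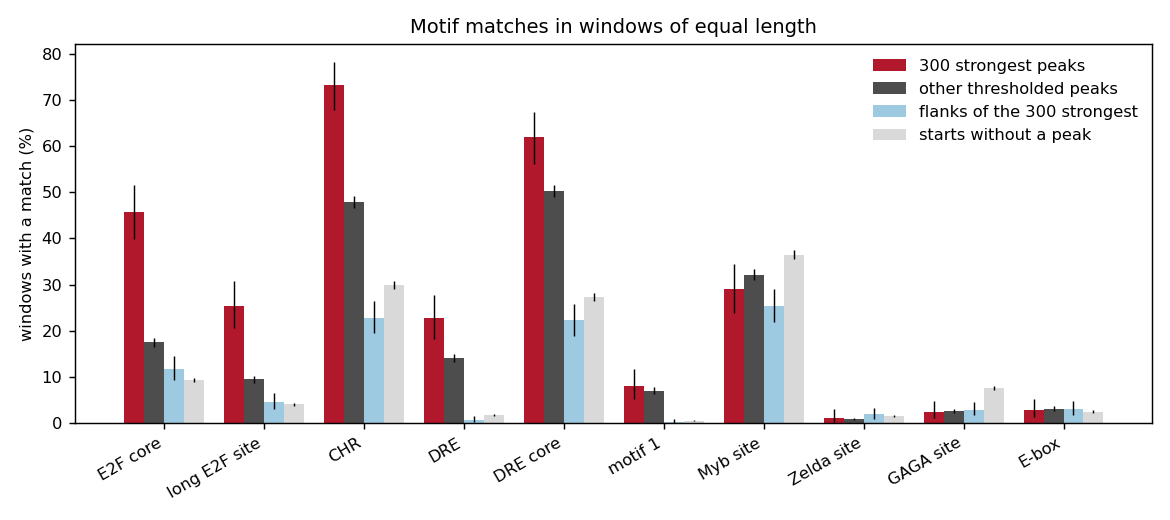
Share of windows of 201 bp that hold each motif, in percent, for the 300 strongest peaks, the other thresholded peaks, the flanks of the 300 strongest and starts without a peak; lines are exact 95% intervals. The E2F core stands at 45.7% of the 300 strongest peaks and at 17.5% of the others, and the CHR at 73.3% and 48%.

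Few members lacked all of these elements. An E2F core, a CHR or a DRE was found at 271 members, and none of them at 29 (9.67%), against 36.8% of the other peaks. The CHR without the other motifs was the most frequent state, at 98 members (32.7%) and 33.5% of the others, followed by E2F core with CHR and no DRE at 78 (26%) and 8%. All 3 elements together were at 22 members (7.33%), against 0.904%. The E2F core alone was at 27 (9%), against 7.6%, and with a DRE but no CHR at 10 (3.33%), against 0.977%. Since the CHR itself was at 73.3% of members, these shares do not show that cores favoured peaks with a CHR. By rank within the members, an E2F core was at 45, 47 and 45 of the first, middle and last 100 peaks, and a CHR at 77, 79 and 64. The number of cores was 1 at 111 members, 2 at 24 and 3 at 2 members. One of these was at PolE1, and the other lay 28 bp from the start of FLASH and 170 bp from those of CG34315 and Orc3, which encodes a subunit of the origin recognition complex. More than 1 core was at 8.67% of members and 2.77% of the others, with slbo, CG9630 and Meltrin the strongest of those with 2.

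The E2F core and the CHR of the members were placed on the far side of the summit from the start. Among members at starts, the core nearest the summit lay upstream of it at 100 of 121 (82.6%, exact interval 74.7% to 88.9%), against 50.5% of 810 others, a difference of 32.2 points (23.7 to 38.8). For the CHR this was 156 of 191 (81.7%, 75.4% to 86.9%), against 66% of 2302 others, a difference of 15.7 points (9.31 to 20.9). The DRE and motif 1 lay on the other side more often, with 36.5% of 63 DREs and 18.2% of 22 motif 1 matches upstream of the summit in members, against 47.9% and 26.1% in the others, and the intervals of both differences include 0. Relative to the start, the median position in members was -94 bp for the E2F core, -108 bp for the CHR, -51.5 bp for the DRE and -19.5 bp for motif 1, against -55.5, -87.5, -37.5 and 1 bp in the other peaks. Where a single gene was in reach, the core was on the far side in 82.5% of 97 members and 54.9% of 528 others.

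With the median summit at -60 bp, these medians place the CHR and the E2F core upstream of the Dp summit, and the DRE and motif 1 nearer the start. The medians come from different sets of peaks, and the order within single promoters was not examined. In members the quartiles of the CHR (-150 and -78.5 bp) and of the E2F core (-143 and -72 bp) largely overlapped. Matches within 25 bp of the summit made up 14% of the members' nearest E2F cores and 30.5% of those in other peaks. In bins of 25 bp along the promoter, the E2F core was most frequent from -100 to -75 bp in the members, at 11.1%, where the other peaks had 2.08%. The CHR also had its highest bin there, at 22.9% of members and 10.8% of the others. From -50 bp to the start the members held the E2F core in 1.53% and 2.67% per bin, against 2.13% and 2.39%, so the surplus ended short of the start. The signal summit of sonicated fragments of 200 to 800 bp locates binding only coarsely, and the part of fragment length and shape in these offsets was not tested.

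**Figure D3:**
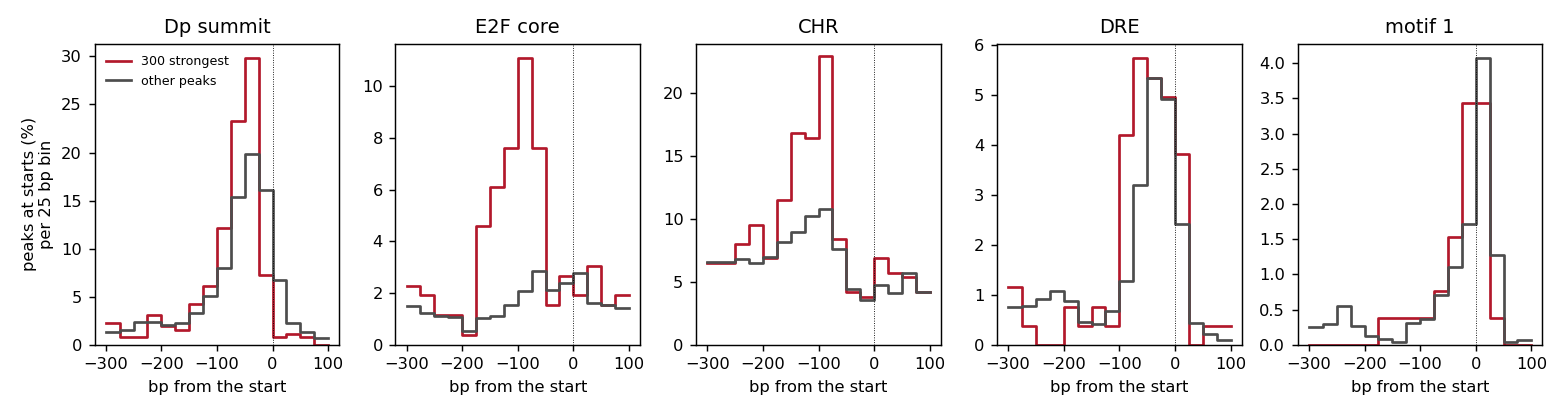
Share of peaks at starts, in percent per bin of 25 bp, with a Dp summit, E2F core, CHR, DRE or motif 1 at each distance from the nearest start (negative is upstream), for the 300 strongest peaks (262 at starts) and the other peaks (4845 at starts). In the 300 strongest the E2F core reaches 11.1% and the CHR 22.9% between -100 and -75 bp, while the summits are most frequent from -50 to -25 bp, at 29.8%.

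Where both elements were present they stood close together. An E2F core and a CHR occurred jointly at 100 members (33.3%), against 8.9% of the other peaks, and the median gap between the nearest such matches was 9 bases, against 23.5 bases at the 492 other peaks with both. A gap of 0 to 12 bases was found at 64 of the 100 (64%, exact interval 53.8% to 73.4%), against 39% (34.7% to 43.5%). Gaps of 1 and 4 bases were the most frequent in both sets, at 16 and 11 of the 100 members and at 37 and 27 of the 492 others. At all 16 members with a gap of 1 base the core ended in AA next to the CHR, as it did at 34 of the 37 others. Of the 11 members with a gap of 4 bases, 7 had the core in the other orientation, beginning with TT away from the CHR. These arrangements place the 4 letters at the centre of the E2F site 8 bases before the CHR in either case, and together they were at 23% of members with both motifs (15.2% to 32.5%), against 11.4% (8.71% to 14.5%). The comparison of gaps was chosen after the sequences were seen. Since the core is nearly symmetrical, the orientation of a single match does not show how a protein lies on it.

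The pairs shown next are those of the strongest eligible members with gaps of 1 and 4 bases that lie away from untranslated regions, read so that the E2F core comes first; capitals cover core, spacer and CHR. They belong to Cks30A, a subunit of cyclin-dependent kinases, CG3808, Gpdh1, PolE1, Nsf2, a factor of membrane fusion, CG7920, DnaJ-1, a heat shock co-chaperone, and CG11279.
Cks30A (chr2L:9330628-9330641, minus strand): GCGGGAAGTTCAAA
CG3808 (chr3L:19000736-19000749, plus strand): GCGCCAAATTCGAA
Gpdh1 (chr2L:5943581-5943594, minus strand): GCGCCAAATTCAAA
PolE1 (chr3R:23348031-23348044, minus strand): GCGCCAATTTCAAA
Nsf2 (chr3R:13838059-13838075, minus strand): GCGCCAATGAATTCAAA
CG7920 (chr3R:30015453-30015469, plus strand): TTGGCGCCACTTTTGAA
DnaJ-1 (chr3L:5749865-5749881, minus strand): GCGCCAAACAATTCAAA
CG11279 (chr3L:13046911-13046927, minus strand): TTGGCGCGCTTTTCAAA
In the first 4 the core and the CHR are 1 base apart, and in the last 4 the spacer has 4 bases. Nsf2 and DnaJ-1 combine the longer spacer with a core that ends in AA next to the CHR, so they fall outside the shared distance of 8 bases.

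**Figure D4:**
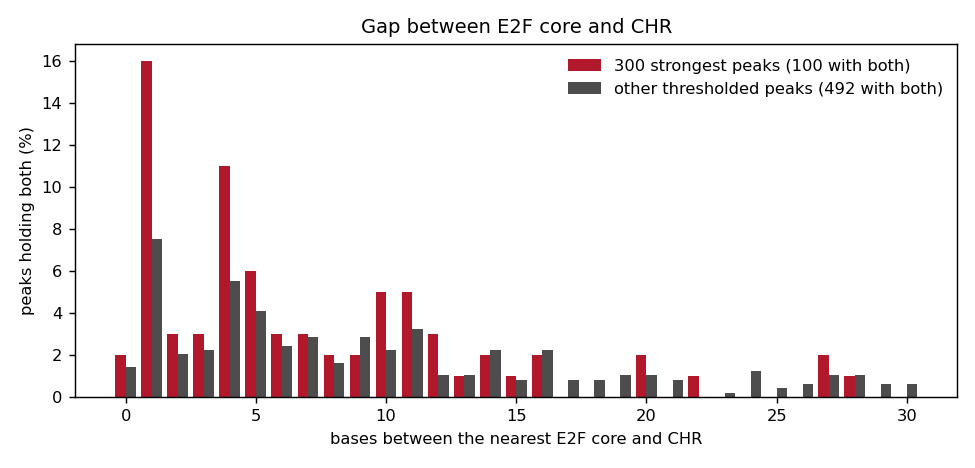
Bases between the nearest E2F core and CHR, as a percent of the peaks that hold both, for the 300 strongest peaks (100 with both) and the other thresholded peaks (492 with both). Gaps of 1 and 4 bases are the most frequent in the 300 strongest, at 16% and 11%.

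The X chromosome was sparsely represented. It held 16 members (5.33%, exact interval 3.08% to 8.52%), against 18.3% of the other thresholded peaks and 15.7% of the 13945 protein-coding genes, a difference from the other peaks of -13 points (-15.2 to -9.65). The top 300 lists of the replicates taken alone held 17 X peaks in replicate 3 and 18 in replicate 1. Only 1 of the 100 strongest was on the X, at Axs, with a value of 6156. Among successive sets of 300 peaks by rank, the X had 12.3% of ranks 301 to 600, 13.7% of ranks 601 to 900 and 20.3% of ranks 901 to 1200. Over all thresholded peaks the median signal was 606 on the X and 607 to 682 on the major autosomal arms, so it was the upper end of the list in which the X was short. The embryos were of pooled sexes, and the part of X copy number in these shares was not tested. Arm 3R held 29.7% of members and 23.8% of the others, 2R 26% and 20.2%, 3L 22.7% and 18.9%, and 2L 16.3% and 18.4%. Chromosome 4 held 0 of 300, for which a limit of 3 counts allows a share of up to 1% and the exact interval up to 1.22%, against 0.434% of the others. X-linked members included Hira, a histone chaperone gene (4739), AMPKalpha, the catalytic subunit of the AMP-activated kinase (5300), and betaCOP, a coat protein of Golgi vesicles (4859).

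**Figure D5:**
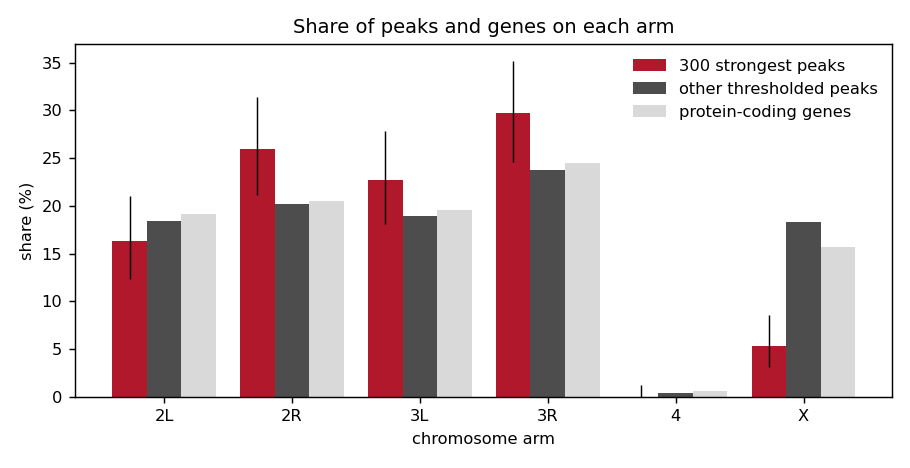
Percent of the 300 strongest peaks (lines are exact 95% intervals), of the other thresholded peaks and of protein-coding genes on each chromosome arm. The X holds 5.33% of the 300 strongest peaks and 18.3% of the others.

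The rule assigned 350 protein-coding genes to the 300 peaks, which is 2.51% of all 13945, and 313 of them had a start within 500 bp of the summit. The lists for replication, G1/S control and mitosis had the highest shares assigned of the 26 lists, while the other cell cycle lists had 1.85% to 4.88%. The 7 lists for replication, nucleotide supply, G1/S control, mitosis, centrosomes, repair and chromosome structure together had 31 of 419 genes assigned (7.4%, exact interval 5.08% to 10.3%), against the background of 2.51%, at 31 of the 300 peaks. Of those 31 peaks 16 had an E2F core (51.6%, 33.1% to 69.8%) and 20 a CHR (64.5%, 45.4% to 80.8%), and of the other 269 members 45% (38.9% to 51.1%) had a core and 74.3% (68.7% to 79.5%) a CHR. The intervals of both motifs overlapped between these sets. RefSeq describes the product of 110 of the 350 genes (31.4%, 26.6% to 36.6%) as uncharacterized, against 43.8% of all protein-coding genes.

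DNA replication had 8 of 58 genes assigned (13.8%, 6.15% to 25.4%), all by a start within 500 bp. Of the 8 peaks 6 had an E2F core, where 45.7% of all members had one. PolE2, which encodes another subunit of polymerase epsilon, had a pooled value of 7560, with 3447 in replicate 3 and 4140 in replicate 1, and its window held an E2F core, 3 CHRs and a DRE. Cdc6, a loader of the replicative helicase, had 7185, with 3268 in replicate 3 and 3939 in replicate 1, and no core. PolE1 had 7139, with 3268 in replicate 3 and 3884 in replicate 1, so that these 3 genes stood within the 48 strongest peaks. Claspin, an adaptor of the replication checkpoint, had 6462, dup, the Drosophila Cdt1, 5632, and RecQ4, a helicase-like initiation factor, 5106. Orc3 and PolA1, the catalytic subunit of polymerase alpha, closed the list at 5055 and 4647 and carried 3 and 2 cores. The peak of dup was nearer the start of SRPK, and that of Orc3 nearer the start of FLASH, so that 6 of the 8 genes remained when each peak was given to its nearest start alone. Both of those peaks were among the 6 with an E2F core. Of 24 genes for nucleotide synthesis only r-l, the UMP synthase gene of pyrimidine synthesis, was assigned, at 9229 (3878 in replicate 3 and 5382 in replicate 1), with 3 CHRs and no core.

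Mitosis and spindle genes numbered 12 of 116 (10.3%, 5.46% to 17.4%), with a CHR at 9 of the 12 peaks and an E2F core at 3, where 73.3% and 45.7% of all members had these motifs. The strongest was mad2, of the spindle checkpoint, at 10090, with 4950 in replicate 3 and 5173 in replicate 1, and its window had a DRE and neither of the other motifs. CycA followed at 8344, with 3808 in replicate 3 and 4561 in replicate 1, also with a DRE alone. CycB3, a mitotic cyclin, had 6611, ida, a subunit of the anaphase-promoting complex, 6585, Rae1, a nuclear pore and spindle protein, 6467, and borr, of the chromosomal passenger complex, 5786. Each of these last 4 windows held a CHR. The remaining members were msd1, cal1, CycB, sti, lmgA and asp, with values of 4707 to 5498.

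The list for G1/S control, E2F and dREAM had 4 of 33 genes assigned (12.1%, 3.4% to 28.2%). Cks30A had a value of 8016, with 3518 in replicate 3 and 4531 in replicate 1, mip120, a MuvB subunit, had 7578, Dp itself 4853, and Cdk4, by a summit 682 bp upstream of its start, 4611 at the very limit of the list. The window at mip120 held none of the E2F core, CHR and DRE. The embryos also carried the Dp transgene, and what its DNA adds to the value at Dp was not tested. The same holds for the nearby members on 2R at FLASH and Orc3, at CG4627 and at CG4679. Repair and checkpoint genes reached 3 of 99 (3.03%, 0.629% to 8.6%), a share near the background, with FANCI at 7123, Fancm at 6523 and Rad51D at 4799; the first 2 act in the Fanconi anaemia pathway and the third is a recombination factor. Centriole and centrosome genes reached 2 of 41, Poc1 at 4837 and Grip75, of the gamma-tubulin ring complex, at 4656. Of 54 genes for cohesin, condensin and chromatin assembly, Hira alone was assigned.

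Germline genes were present among the strongest peaks. The list of germline and piRNA genes had 5 of 76 assigned (6.58%, 2.17% to 14.7%), an interval that reaches below the background of 2.51%. The piRNA gene tej was second of all peaks at 12251, with 6054 in replicate 3 and 6294 in replicate 1, and its summit lay 489 bp upstream of the start. The RNA-binding protein gene rump had 6439, nanos, the translational repressor of the posterior pole, 6384, shu, a piRNA cochaperone, 6076, and bam, the differentiation factor of germline stem cells, 5433. At nanos the summit was 356 bp upstream and nearer the start of CG11779, so that its peak cannot be given to one of them. At bam the summit was 494 bp upstream, with no other protein-coding start in reach.

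Hormone and signalling genes had 6 of 127 assigned (4.72%, 1.75% to 10%), several by summits far from the start. The third peak of all, at 11972 with 5229 in replicate 3 and 6793 in replicate 1, lay 3395 bp upstream of slbo, the C/EBP factor of border cell migration, and its window held 2 E2F cores, 2 CHRs and a DRE. The fifth, at 10200 with 4563 in replicate 3 and 5653 in replicate 1, lay 275 bp upstream of ftz-f1, which was also the only assigned gene of 67 in embryo patterning (1.49%). InR had a summit 615 bp upstream at 7937. Eip74EF had one at 6691 that lay in an intron, 20573 bp upstream of its nearest annotated start. The Hippo kinase gene hpo, at 5784, and key, of the immune deficiency pathway, at 5533, had theirs at 85 and 42 bp upstream.

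Most lists of general cell functions were reached at close to the background rate of 2.51%. Chromatin and transcription regulators had 6 of 175 (3.43%), led by vig, which encodes a component of RNA interference and chromatin complexes, at 9780, and esc, a Polycomb subunit, at 5886; Rtf1 had 4958, kto 4804, msl-3 4689 and Polr2F 4685. Membrane traffic had 5 of 181 (2.76%), with Syx7 at 9463, Sar1, the GTPase of COPII vesicles, at 8395, Nsf2 at 7000 and Rab23 at 6418, while Rab8 was named only as the nearest start, 8208 bp away. RNA splicing and processing had 5 of 147 (3.4%), SmD1, Smg6, CG7483, tral and Sf3a1, with values of 4758 to 7048. Nuclear pore and transport genes had a higher share, 3 of 57 (5.26%, exact interval 1.1% to 14.6%), Rae1, Rcc1 and Nup62. That interval includes the background. Cytoplasmic ribosomal proteins had 3 of 93 (3.23%), RpS29 at 6649, RpL7-like at 6037 and RpS23 at 5199, the last with a start 1623 bp away. Oxidative phosphorylation had 3 of 95 (3.16%), Cyt-c-p at 6456, COX4 at 5208 and ND-19 at 4796. None of these 3 windows held an E2F core or a CHR, and 2 held a DRE. Of all members 45.7% had a core, 73.3% a CHR and 22.7% a DRE, and 3 peaks are too few to set against these shares. Translation factors and tRNA synthetases had 2 of 85, eIF3d1 and eIF4G2, ribosome biogenesis 1 of 57, Dbp73D, and the proteasome 1 of 51, its testis paralog Prosbeta2R2, which was also the single gene of 46 in the spermatogenesis list.

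Of 3 lists no gene was assigned. For 0 of 123 cuticle protein genes a limit of 3 counts allows a share of up to 2.44% and the exact interval up to 2.95%, which includes the background of 2.51%. For 0 of 75 mitochondrial ribosomal protein genes these limits are 4% and 4.8%, and for 0 of 20 cell death genes 15% and 16.8%. Chemoreceptor and odorant-binding genes had 4 of 231 (1.73%, 0.474% to 4.37%), Ir60e, Gr63a, Obp47b and Gr89a, and 1 of the 4 remained when each peak was given to its nearest start alone. The neuronal list had nrv2 of 46 genes (2.17%) and the muscle list Tm1 of 25 (4%), shares near the background.

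Outside the lists the strongest peaks were assigned to genes of varied function. At 11871 the fourth peak was 375 bp upstream of Nepl8, of the neprilysin-like peptidase family, and the ninth, at 9706, was 134 bp upstream of Meltrin, an ADAM metalloprotease gene, with 4923 in replicate 3 and 4824 in replicate 1. Transcription factors and their partners followed. Cipc, a partner of the circadian Clock protein, had 9216 by a summit 3256 bp upstream. The GATA cofactor gene ush had 8972 by a summit in a 5′ untranslated region, 592 bp upstream of its nearest annotated start. Ets97D, an ETS-domain gene, had 8819, and Jasper, a chromatin reader, 8528. Sgt1 had 8689, jar 8477, CD98hc, the heavy chain of amino acid transporters, 8443, and Plc21C, a phospholipase C, 7952. Genes with uncharacterized products held 8 of the places among the 30 strongest, namely CG9630 at 9859, CG13577 at 9293, CG3505 at 9006, CG10600 at 8328, CG3808 at 7996, CG33169 and CG4502 at 7986 each and CG43066 at 7941. Sorting by hand, done after the members were known, placed 134 further genes in 10 broad classes. The largest were metabolic enzymes and energy sensing with 25 genes, among them Gpdh1, Glyp, Pmvk and Cat. Glyp and Cat were assigned by summits 586 and 5925 bp from their starts. RNA processing and translation had 20 genes, and so did signalling, adhesion and membrane transport. These classes were made from assigned genes alone. No share over all genes can be set beside them, so their sizes do not show which functions the peaks favour. Another 140 genes, most of them without a described product, entered no list or class.

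Of the 38 members more than 500 bp from any protein-coding start, 28 were intergenic, 7 intronic, 2 in 3′ and 1 in a 5′ untranslated region. Their median value was 6221, where that of all members was 5537, and 21 of them were among the 100 strongest peaks. For 11 the nearest start was within 1000 bp, for 22 within 2000 bp, and for 6 it was more than 5000 bp away. Starts of noncoding genes lay within 500 bp of 2 of them, lncRNA:CR45433 at 108 bp from the summit assigned to Rab8, and the pseudogene CR43158 at 340 bp from the summit assigned to CG31680. Motif content away from starts was like that at starts, with an E2F core at 16 of 38 (42.1%, exact interval 26.3% to 59.2%) and a CHR at 29 (76.3%, 59.8% to 88.6%), against 46.2% and 72.9% of the 262 at starts. Other thresholded peaks away from starts had these motifs in 22.8% and 51.1%. The DRE was at 5 of 38 (13.2%, 4.41% to 28.1%), against 24% (19% to 29.7%) of members at starts.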

How the data were processed

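Dp ChIP-seq of whole embryos was deposited as a relaxed peak list for each of 2 replicates and a pooled list thresholded by irreproducible discovery rate (IDR), on dm6 per the file headers and labels. The signal value, the −log10 q and the summit offset of each peak are the authors' own, as deposited; all lists were called against the same control, per the deposited descriptions. The scale of the signal is not stated and read depth is unknown; aligner and peak caller: not given in the sources used here. As deposited by the authors, the −log10 q had 1 value shared by all thresholded peaks and was not used.

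The 300 rows with the highest signal were taken as members. Each was assigned to all protein-coding genes with an annotated start within 500 bp of the summit, otherwise to the nearest start, using the Ensembl release 115 annotation. A replicate's value was that of its relaxed peak overlapping the member with the nearest summit. Motifs were counted on either strand in the 100 bp before and after each summit. Gaps are bases between the nearest matches. Shares have exact Clopper-Pearson 95% intervals and differences of shares Newcombe intervals, which cover counting error only; no test was made, and p-values are not given. Motif search and gene assignment were tested on simulated data. Named genes were those of the 30 strongest peaks, up to 6 per list, those with the most E2F cores and those whose replicates differed most; the gene nearest the strongest peak is not reported here, and genes named for other reasons, in the X, divergent, spacing and hand-sorted groups, were chosen after their values were seen. Members and the 26 gene lists were chosen with earlier results of these data known. Coordinates are 1-based. Scripts used Python 3.11.15, pandas 2.3.3, scipy 1.17.1, matplotlib 3.10.9 and numpy 2.4.6.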

Additional observations from a re-analysis of the deposited data

How the results depend on the processing

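No paired analysis was possible because there is only 1 group. The E2F core share went to 29% within 50 bp of the summit, where the other peaks had 11.5%, the CHR share to 37.7% within 50 bp (25.5% in the other peaks) and 79.7% within 150 bp (59.6%), and the DRE share to 17% within 50 bp (10.8%). The share of summits near a start was 77.7% within 200 bp and 91% within 1000 bp, and that of starts on both strands 5.15% and 23.1%, against 20% and 49% of the other peaks. With the 200 strongest peaks, a shorter list by construction, 19 cell cycle genes were assigned. Within 50 bp the CHR was on the far side of the summit in 74.7%. Wider or narrower windows and distances move shares by construction. Taking the 300 strongest peaks of a single replicate gave 45% to 46% for the E2F core, 5.67% to 6% on the X, 96.9% to 98.9% upstream of the start, 83.1% to 83.5% for far-side cores and 28 cell cycle genes in either case. Of 305 alternative values, 264 stayed within the interval of the reported share, 1.5 times the reported count or 1 SD of the replicate difference. Counts of 1 to 6 genes per list moved most. Alternatives for the X, both strands, upstream and far-side shares and the gaps were chosen after seeing the data.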

Other observations

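A count of all 2080 sequences of 6 bases within 100 bp of the summits, strands merged and made after the motifs had been examined, led with parts of the same elements. The largest surpluses in the 300 strongest peaks were GCGCCA, part of the E2F core, in 45% of the 300 and 16.5% of the other peaks, then CGCCAA, in 46% and 17.9%, and TTCAAA, a form of the CHR, in 67.3% and 41.6%. Next came ATTCAA, in 48.7% of the 300 and 27.5% of the others, ATTTGA, in 47.3% and 29.1%, and the palindrome GGCGCC, in 24.7% and 6.78%. Parts of the DRE followed, with ATCGAT in 45.3% of the 300 and 29.7% of the others and TATCGA in 49.3% and 35.3%. The largest deficits were AGAAAA, in 17.7% of the 300 and 28.6% of the others, and GAAAAA, in 25% and 34.8%. The median share of G and C in these windows was 39.8% in the 300 and 37.8% in the others, and its part in these counts was not tested.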
